A study of Mus musculus with 721 samples.

Results

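Mesp1, Mesp2, Mixl1, Evx1, Aplnr, Kdr, Lhx5 and Pcdh8 were followed in single cells of early mouse embryos, with the most detail at E6.5, when the primitive streak forms. These 8 genes were the rows of the count table with those symbols, 8 of 24483 gene rows. The series holds 721 cells of wild-type C57Bl/6Babr embryos from E3.5 to E6.5, sequenced with G&T-seq, which reads poly(A) RNA by SMART-seq2 after parting it from the DNA of the same cell. At E6.5, 250 cells came from 13 embryos as the titles count them: 129 cells of 9 embryos on plates P1 to P3, 39 cells of 2 embryos whose names carry no plate, and 82 cells of 2 embryos titled E6.75. The study's methods describe these embryos as early streak by eye, freed of extra-embryonic tissue by hand, and state that dissections may have differed in how many streak cells they gave. Embryos were the replicates, since cells of an embryo share their source. The labels do not tie embryos to litters, nor do they say whether the 2 embryos without a plate are embryos 1 and 2 of the plates. Merging them by number changed no call among the 8 genes.

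The primitive streak is the posterior region where epiblast cells leave the epithelium and become mesoderm and definitive endoderm. T (Brachyury) marks the streak and nascent mesoderm, and Mixl1 and Evx1 are homeobox genes switched on there. Mesp1 and Mesp2 encode bHLH factors of the early mesoderm, of which Mesp1 marks the first cells that leave the streak, including heart precursors, while Mesp2 is best known for its later role in segmentation. Aplnr and Kdr encode cell surface receptors, for apelin and Elabela and for VEGF, and Pcdh8 is the paraxial protocadherin. Lhx5 encodes a LIM-homeobox factor best known from the forebrain.

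E6.5 cells were parted by levels in CPM, the gene's count scaled to a common total per cell. Endoderm-like cells were set aside first, by clusters named from 18 endoderm and 11 epiblast markers with the 8 genes and T left out of the clustering. The other cells were T-positive at 10 CPM of T or more, and T-positive cells were parted at 10 CPM of Mesp1. This gave 30 T+Mesp1+ cells in 4 embryos, 24 T+Mesp1- cells in 5 embryos, 154 T- cells in 13 embryos and 42 endoderm-like cells in 12 embryos. T and Mesp1 made these classes, so their own levels are given as a description. Near the limits, the 3 nearest T-positive cells had 11.6, 16.1 and 18.8 CPM of T and the 3 nearest T- cells had 9.42, 9.21 and 7.49 CPM. For Mesp1 the 3 nearest T+Mesp1+ cells had 10.1, 12.3 and 15.9 CPM, and the nearest T+Mesp1- cells had 8.93, 1.03 and 0 CPM. Few cells lay close to either limit, 10 of 208 between 5 and 20 CPM for T and 5 of 54 for Mesp1.

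Depth ran from 66896 to 3792936 counts per cell at E6.5, with medians of 484268 in T+Mesp1+, 554724 in T+Mesp1-, 631168 in T- and 888472 in endoderm-like cells. Counts of the 18 endoderm markers, summed per embryo over classes with at least 3 cells, were 12825 to 42984 CPM in endoderm-like cells and 574 to 5238 CPM in the 3 other classes. Their presence at that lower level, with all 18 detected in T+Mesp1+, T+Mesp1- and T- cells alike, touches every statement below on Mixl1, which was high in endoderm-like cells too, and their part in it was not tested. Of 9 haematoendothelial markers 6 were detected in T+Mesp1+ cells, where Gfi1b, Pecam1 and Fli1 stood at 0, and their summed level was 3.17 to 30.1 CPM there against 1.35 to 28.4 CPM in T- cells. The 4 anterior visceral endoderm markers (Cer1, Hhex, Lefty1 and Dkk1) summed to 251 CPM in the T+Mesp1+ cells of embryo 2 without a plate name, 94.5 CPM in those of embryo 3 of the plates and 29.9 CPM in those of embryo 2 titled E6.75. They summed to 15.6 CPM in the T- cells of the first of these embryos, to 2.71 to 119 CPM over all T- sums and to 37.9 to 141 CPM over T+Mesp1- sums. Cer1 and Dkk1 each reached 10 CPM in all 23 of its T+Mesp1+ cells, Hhex in 12 and Lefty1 in 1. The sum of these markers was thus higher in T+Mesp1+ than in T- cells of that embryo. With no T+Mesp1- cell there, T and Mesp1 cannot be told apart in this. In embryo 2 titled E6.75 the sum was lower in T+Mesp1+ than in T+Mesp1- cells, 29.9 against 141 CPM. In embryo 3 of the plates it was higher, 94.5 against 62.3 CPM. The part of these markers in the results was not tested.

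The T+Mesp1+ class came mostly from 1 embryo. Embryo 2 without a plate name gave 23 of its 30 cells, embryo 3 of the plates and embryo 2 titled E6.75 gave 3 each, and embryo 1 titled E6.75 gave 1. That first embryo had no T+Mesp1- cell, and it is 1 of 2 embryos of its batch, so its dissection, its batch and its stage cannot be told apart. The fold differences, calls and correlations that rest on it are given with and without it. Its 23 T+Mesp1+ cells detected a median of 9632 genes (range 7249 to 10575), against 5667 in the 3 cells of embryo 3 of the plates and 7933 to 8937 in the 4 cells titled E6.75, so the cells that carried most of the detections below also had the highest median of these groups. The 7 T- cells of that embryo detected a median of 9087 genes and T- cells of the other embryos 6446. The part of this in the detections was not tested.

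Mesp1 lies on chromosome 7 of GRCm38 at chr7:79792241-79793788 on the minus strand, and Mesp2 at chr7:79810727-79813439 on the plus strand. The pair are head to head with 16939 bases between their starts and no other annotated gene there. The windows below are shown because the pair were detected in the same cells, which were chosen by their level of T, a T-box factor. RefSeq promoter windows (GRCm38.p6, 250 bases before to 50 after the start) were given for 5 of the 8 genes and searched on both strands for the T-box core CACACCT, the TCF/LEF core ATCAAAG and the FOXH1 motif AATCCACA, which were picked after the windows had been read. Positions are counted from RefSeq's start, which for Mesp1 lies inside the GENCODE gene. Each 30-base stretch is written 5′ to 3′ on the strand of the gene, with the match in capitals.
Mesp1, T-box core 7 bases into the transcript, chr7:79793566-79793595: ggggcccgcttCACACCTagggctcaggat
Mesp1, TCF/LEF core in reverse at 31 bases before the start, chr7:79793603-79793632: gctcgagccggCTTTGATatgctgatgaat
Mesp2, T-box core 29 bases into the transcript, chr7:79810744-79810773: gggtcagaatcCACACCTctgcaaatgggc
Mesp2, FOXH1 motif 25 bases into the transcript, chr7:79810740-79810769: cgaggggtcagAATCCACAcctctgcaaat
Evx1, T-box core 39 bases before the start, chr6:52313448-52313477: cgagcgaggccCACACCTggcgcatcactg
In Mesp2 the FOXH1 motif and the T-box core overlap by 4 bases. Among all 32851 windows of that length, 5.84% held the T-box core, 3.73% the TCF/LEF core and 0.855% the FOXH1 motif. The windows of Kdr and Pcdh8 held none of these letters. The matches are a description of sequence.

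Mesp1 was high in the T+Mesp1+ cells of 1 embryo and near the limit in most of the others. Its level over summed cells was 395 CPM in embryo 2 without a plate name, 85.5 CPM in embryo 3 of the plates and 17.9 CPM in embryo 2 titled E6.75. In single cells the median was 346 CPM (range 12.3 to 879) over the 23 cells of the first embryo and 20.7 CPM over the 7 cells of the other 3 embryos. Their lowest cell had 10.1 CPM, and their highest, the only T+Mesp1+ cell of embryo 1 titled E6.75, lay above the median of the first embryo. The 7 T- cells of that same first embryo had at most 4.21 CPM. Mesp1 also passed 10 CPM in 5 T- cells of 2 embryos, at 12.4 to 39.0 CPM, and all 5 had Mixl1 at 32.5 to 198 CPM and no count of Mesp2, Aplnr, Kdr or Pcdh8. Among endoderm-like cells, 1 had 23.3 CPM of Mesp1 and was also among the 5 endoderm-like cells with T.

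Mesp2 was found almost wholly in cells with Mesp1. It reached 10 CPM in 21 of 30 T+Mesp1+ cells (70.0%, exact Clopper-Pearson 95% interval 50.6 to 85.3%) and in 1 of 42 endoderm-like cells. It did so in 0 of 24 T+Mesp1- cells and 0 of 154 T- cells, whose exact intervals reach up to 14.2% and 2.37%. Intervals and limits cover counting error only. Its level was 93.6 CPM in embryo 2 without a plate name and 0 in the 2 other embryos with a T+Mesp1+ sum. By cell, 20 of 23 in that embryo and 1 of 7 elsewhere passed the limit. Every one of its 20 Mesp2 cells also had Mesp1, Aplnr and Mixl1 at 10 CPM or more. The mean over 3 embryos was 31.2 ± 54.1 CPM (SD, n = 3), at least 142-fold above T+Mesp1- cells, where a count of 3 over the group was taken as the floor, and without that embryo Mesp2 was at 0 in both remaining sums.

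Aplnr, the apelin receptor, was found mostly in cells with Mesp1. It reached 10 CPM in 24 of 30 T+Mesp1+ cells (80.0%, 61.4 to 92.3%), in none of 24 T+Mesp1- cells, in 1 of 154 T- cells and in 1 of 42 endoderm-like cells. Embryo 2 without a plate name had 153 CPM, embryo 2 titled E6.75 had 6.98 CPM and embryo 3 of the plates had 0. All 23 cells of the first embryo were past the limit, at 12.2 to 329 CPM, against 1 of 7 cells elsewhere. The mean of 53.4 ± 86.4 CPM (SD, n = 3) was at least 243-fold above T+Mesp1- cells, and without the first embryo the mean of 3.49 CPM over 2 embryos was at least 15.9-fold above them. The genes of its ligands, Apela and Apln, are not analysed here.

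Kdr, the main VEGF receptor, and Pcdh8, which takes part in cell movement and segmentation, were seen in 1 embryo. Kdr reached 10 CPM in 12 of 30 T+Mesp1+ cells (40.0%, 22.7 to 59.4%) and Pcdh8 in 16 of 30 (53.3%, 34.3 to 71.7%). All 12 and all 16 were among the 23 cells of embryo 2 without a plate name, and 11 cells had both. None of the 7 other T+Mesp1+ cells, 24 T+Mesp1- cells and 154 T- cells held a single count of either gene. In endoderm-like cells, 2 had counts of Kdr below the limit. Summed over the embryo, Kdr stood at 15.3 CPM and Pcdh8 at 26.6 CPM. Against T- cells the means over the 3 embryos, 5.11 ± 8.85 and 8.86 ± 15.3 CPM (SD, n = 3), were at least 217-fold and at least 376-fold higher, and without the 1 embryo both genes were at 0 in every T-positive and T- sum. An antisense gene on the opposite strand covers 436 exonic bases of Pcdh8, and reads of the pair cannot be told apart in this protocol.

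**Figure D1:**
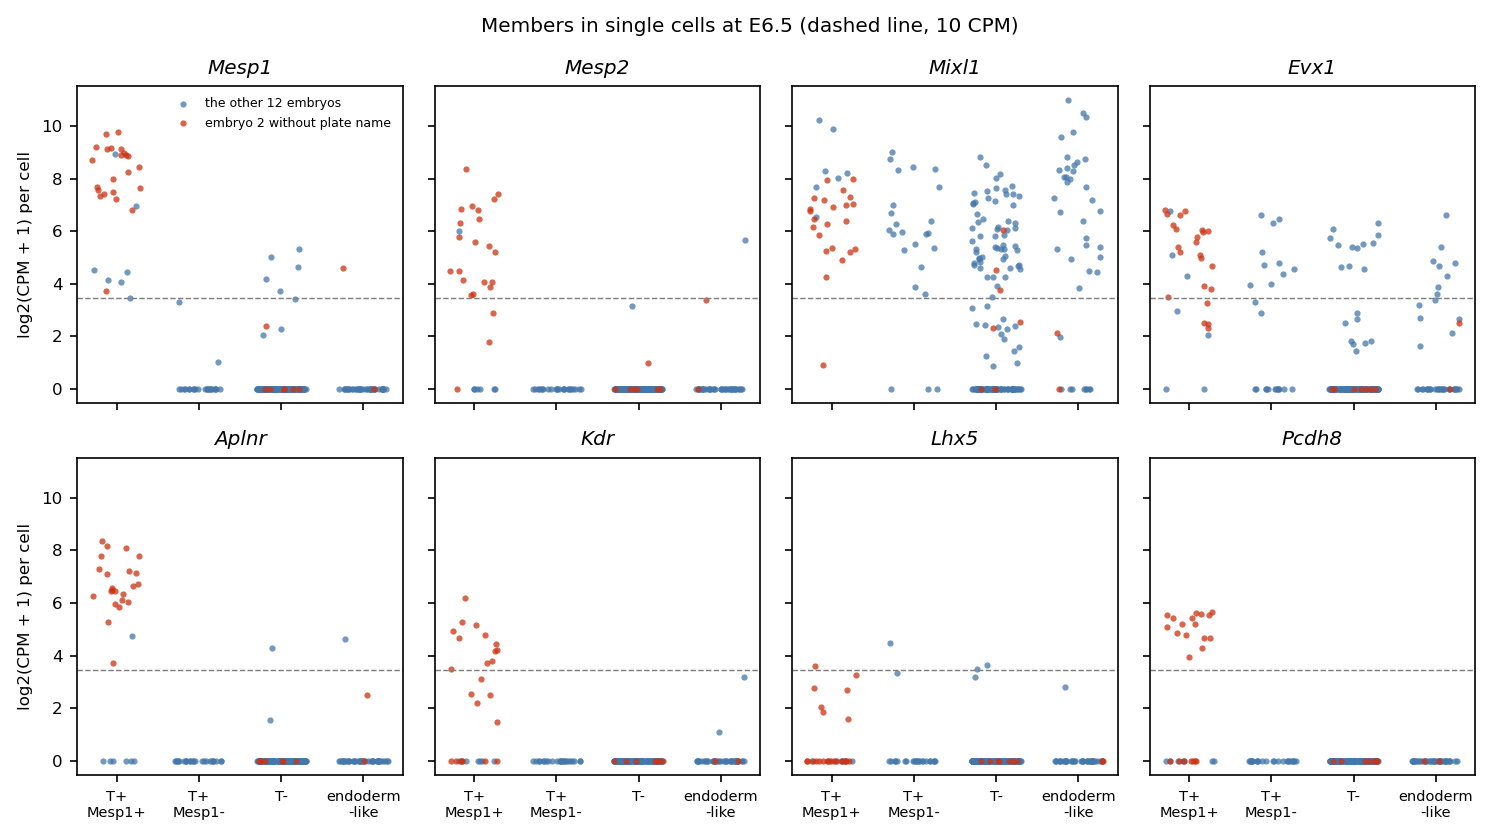
Level of each of the 8 genes per cell, as log2(CPM + 1), in the 4 classes at E6.5, with cells of embryo 2 without a plate name in red and cells of the other 12 embryos in blue. Red points carry nearly all of the Mesp2, Aplnr, Kdr and Pcdh8 cells, whereas Mixl1 and Evx1 are spread over all classes.

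Mixl1 was the most widely detected of the 8 genes. It reached 10 CPM in 29 of 30 T+Mesp1+ cells (96.7%), 21 of 24 T+Mesp1- cells (87.5%), 62 of 154 T- cells (40.3%, 32.4 to 48.5%) and 31 of 42 endoderm-like cells (73.8%, 58.0 to 86.1%). Over T+Mesp1+ sums its levels were 117, 840 and 259 CPM in embryo 2 without a plate name, embryo 3 of the plates and embryo 2 titled E6.75. In T+Mesp1- sums they were 222 CPM in embryo 3 of the plates and 60.9 and 73.3 CPM in embryos 1 and 2 titled E6.75. In T- sums the lowest of 13 embryos was 0, the median 15.9 and the highest 75.5 CPM. Here embryo 2 without a plate name was the lowest T+Mesp1+ sum, the opposite of its place for Mesp1, Mesp2 and Aplnr, and in single cells the median was 88.7 CPM there and 295 CPM in the 7 others. The order of the means was T+Mesp1+ (405 ± 383, SD, n = 3), endoderm-like (300 ± 255, n = 8), T+Mesp1- (119 ± 89.3, n = 3) and T- (26.3 ± 27.9, n = 13), and each neighbouring pair overlapped in its embryos.

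In endoderm-like cells Mixl1 ran from 43.2 to 791 CPM over 8 embryos, with a median of 273 CPM and the highest cell at 2023 CPM. Both endoderm-like clusters held it. The one led by haemoglobin genes and Aqp8 had 14 of 21 cells past the limit (median 43.6 CPM) and the one led by Hesx1 and Fgfbp1, with Dkk1 and Hhex, had 17 of 21 (median 105 CPM). Summed endoderm markers had a median of 21517 CPM in endoderm-like cells with Mixl1 and 22864 CPM in those without it. In T- cells they had a median of 1577 CPM in the 62 cells with Mixl1 and 1044 CPM in the 92 without. These medians pool cells of different embryos, so they do not show whether the markers and Mixl1 moved together within embryos. The part of the endoderm markers in the detection of Mixl1 was not tested. No test was run of endoderm-like against other cells, as the clusters were built on the same cells.

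Evx1, a homeobox gene of the posterior streak, was higher in the T-positive classes in counts of cells, with wide overlap between embryos. It reached 10 CPM in 22 of 30 T+Mesp1+ cells (73.3%, 54.1 to 87.7%), 10 of 24 T+Mesp1- cells (41.7%, 22.1 to 63.4%), 12 of 154 T- cells (7.79%, 4.09 to 13.2%) and 8 of 42 endoderm-like cells (19.0%, 8.60 to 34.1%). Of the T+Mesp1+ cells, 19 of 23 in embryo 2 without a plate name passed the limit and 3 of 7 elsewhere (42.9%), near the share in T+Mesp1- cells. T+Mesp1+ sums had 44.9, 0.528 and 17.9 CPM in embryo 2 without a plate name, embryo 3 of the plates and embryo 2 titled E6.75. T+Mesp1- sums had 2.76 CPM in embryo 3 of the plates and 19.2 and 15.0 CPM in embryos 1 and 2 titled E6.75. Embryo 3 of the plates was thus the lowest in both classes, although it was the highest in both for Mixl1. T- sums ran from 0 to 16.3 CPM with a median of 0.138 CPM.

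Lhx5 was rare in every class, at 10 CPM or more in 1 of 30, 1 of 24, 2 of 154 and 0 of 42 cells. Any count was found in 7 of 30 T+Mesp1+ cells, all of embryo 2 without a plate name, at up to 11.1 CPM. Its sums never exceeded 3.94 CPM, the value of embryo 3 of the plates in T+Mesp1- cells, and the classes overlapped at 0.

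Per kilobase of exon, the scale on which genes can be set side by side, the median levels over the 23 T+Mesp1+ cells of embryo 2 without a plate name were 272 CPM per kb for Mesp1, 52.1 for T, 38.7 for Mixl1, 25.1 for Aplnr, 18.7 for Mesp2, 14.4 for Evx1, 5.79 for Pcdh8, 1.14 for Kdr and 0 for Lhx5. Over the 7 cells of the other embryos Mixl1 led at 129 CPM per kb, ahead of T at 28.8, Mesp1 at 16.2 and Evx1 at 2.39, with medians of 0 for the 4 remaining genes. The order of Mesp1 and Mixl1 thus differed between these medians, although in the 1 cell of embryo 1 titled E6.75 Mesp1 also had the higher CPM.

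**Figure D2:**
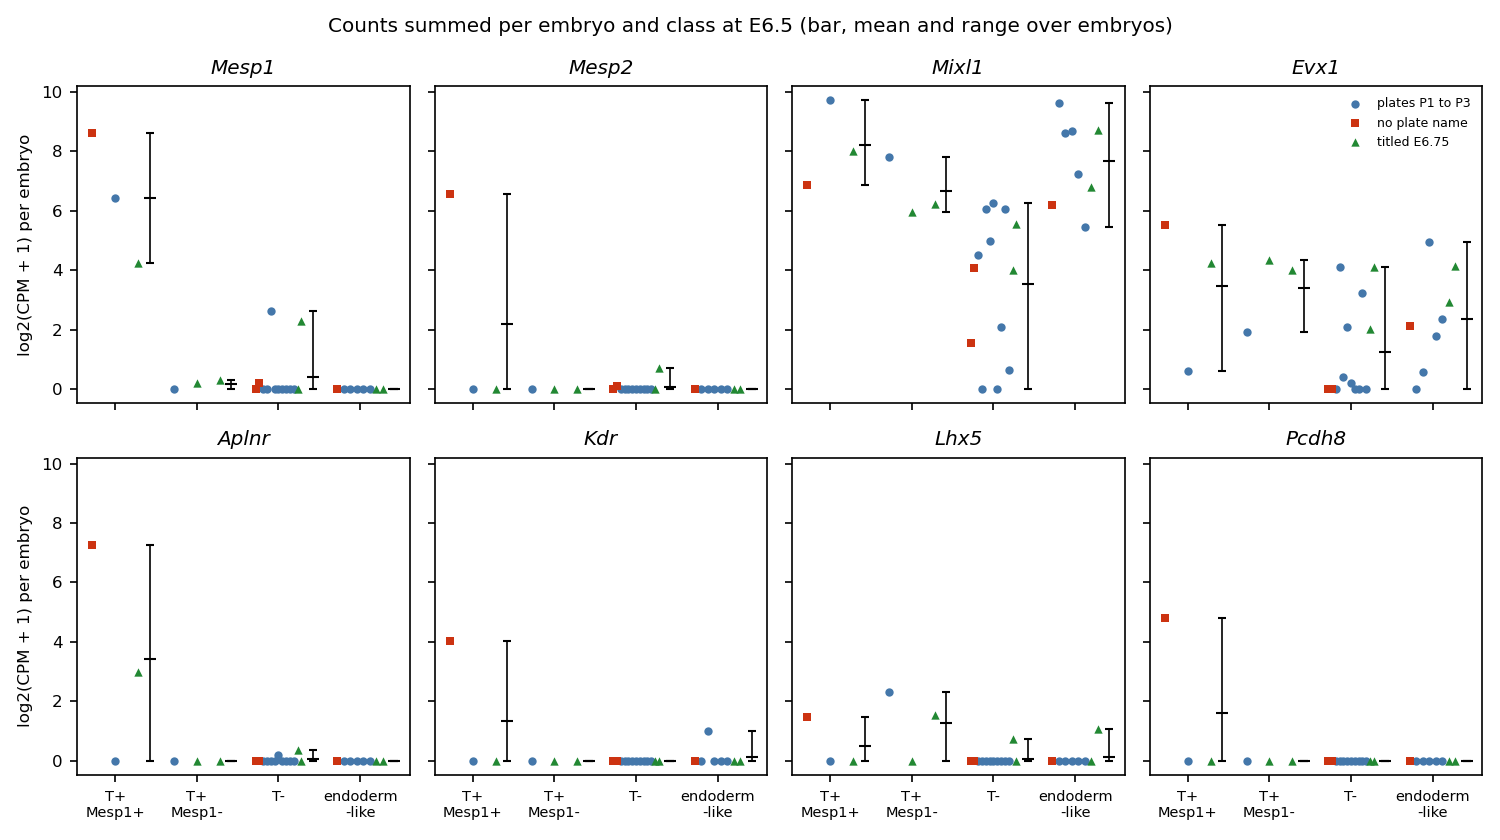
Level of the 8 genes as log2(CPM + 1) in counts summed per embryo and class at E6.5, for sums of at least 3 cells, with marker shape for the batch and a bar for the mean and range over embryos. Mesp2, Kdr and Pcdh8 stand above 0 in 1 of the 3 T+Mesp1+ sums, while Mixl1 is above 0 in all T+ and endoderm-like sums and in 11 of 13 T- sums.

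The question of whether the genes differed between classes was tested on counts summed per embryo and class, using the quasi-likelihood test of edgeR with p-values adjusted by Benjamini-Hochberg. A gene was called at an adjusted p of 0.05 or less and a log2 change beyond 1. Between the 4 T-positive and 13 T- sums, 1 of 11827 genes tested was called (0.00846%), and it was T, which made the classes. None of the 8 genes was called, 262 genes had an unadjusted p under 0.05, and DESeq2 called 2 genes and none of the 8. The filter on low counts kept 3 of the 8. Mesp1 passed it through the T-positive sums, as 10 of the 13 T- sums held no count of it. Its p-values and calls after this filter are therefore not read as a result. Mesp1 came closest, at a log2 difference of 7.20 (SE 1.32, edgeR adjusted p = 0.0554), with 395, 36.6, 16.4 and 3.64 CPM in the T-positive sums and 0 to 5.19 CPM in the T- sums. Mesp1 was called without embryo 3 of the plates (8.76, adjusted p = 0.0164), without embryo 2 titled E6.75 (8.12, 0.0365) and without both embryos titled E6.75 (8.50, 0.0321), and without embryo 2 that lacks a plate name its difference was 4.65 and not called. All 4 T-positive sums had a T- sum of the same embryo, and with the embryo as a term the Mesp1 difference was 4.91 (SE 1.67, edgeR adjusted p = 0.999).

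In the same comparison Mixl1 was higher by 2.90 on the log2 scale (SE 0.89) and Evx1 by 2.49 (SE 1.38), both with an edgeR adjusted p close to 1. Their T-positive sums were 68.7 to 486 CPM and 1.81 to 44.9 CPM, and each overlapped the T- sums. Within embryos, Mixl1 was higher in the T-positive than in the T- sum in each of the 4, and Evx1 in all but embryo 2 titled E6.75. Leaving out each of the 4 embryos in turn gave 1.97 to 3.20 for Mixl1 and 1.67 to 3.09 for Evx1. With the embryo as a term Mixl1 differed by 2.25 (SE 0.32, edgeR adjusted p = 0.128). With no filter on low counts, all 8 genes entered and 10 of 18058 genes were called, among them Aplnr (9.11, edgeR adjusted p = 0.00373), Mesp1 (7.08, 0.0111) and Mesp2 (8.46, 0.0132). Kdr and Pcdh8 had adjusted p = 0.117 each. All T-positive counts of Kdr and Pcdh8, and nearly all of Aplnr and Mesp2, came from 1 of the 4 embryos. With no filter and that embryo left out, 2 genes were called and none of the 8, with Aplnr at 2.95, Mesp1 at 4.65 and Mesp2 at 3.38 (edgeR adjusted p = 0.785, 0.458 and 0.785).

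Between T+Mesp1+ and T+Mesp1- sums (3 against 3), edgeR called 0 of 12473 genes (0%), 284 had an unadjusted p under 0.05 and DESeq2 called 3, none of them among the 8. Mixl1 was higher by 1.99 on the log2 scale and Evx1 by 0.80, and Lhx5 was lower by 1.57, all with an edgeR adjusted p of 1. Of the 8 genes the filter kept Mesp1 and these 3. With the embryo as a term, Mixl1 differed by 1.76 (SE 0.42, edgeR adjusted p = 0.963). In both embryos with a sum of at least 3 cells in each class it was higher where Mesp1 was present. These sums were 840 against 222 CPM in embryo 3 of the plates and 259 against 73.3 CPM in embryo 2 titled E6.75. Each T+Mesp1+ sum here held 3 cells, at 92.7, 959 and 1222 CPM in the first embryo. In embryo 2 titled E6.75, 2 shallow T+Mesp1- cells had 518 and 434 CPM, above its highest T+Mesp1+ cell at 313 CPM. Evx1 did not keep a direction across these embryos. With each embryo left out in turn Lhx5 lay between -1.21 and -0.04 in the 2 fits where it passed the filter, Mixl1 between 1.47 and 2.45 and Evx1 between -0.44 and 1.26. Between T+Mesp1- and T- sums (3 against 13), 1 of 12473 genes was called (0.00802%), again T, with 285 at an unadjusted p under 0.05 and 5 called by DESeq2. Mixl1 was higher by 2.12 on the log2 scale (SE 0.93), Evx1 by 1.69 (SE 1.55) and Lhx5 by 4.68 (SE 1.49), each with an edgeR adjusted p close to 1. With each embryo left out in turn Mixl1 ranged from 1.35 to 2.45, Evx1 was at least 1.21 and Lhx5, in the 2 fits that kept it, ranged from 3.51 to 4.74.

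Single cells showed which of the genes were present together. T+Mesp1+ cells held a median of 6 of the 8 genes at 10 CPM or more (range 2 to 7), T+Mesp1- cells a median of 1 (0 to 2), T- cells 0 (0 to 3) and endoderm-like cells 1 (0 to 2). Mesp1 counted among the 8, so the first class started at 1 by its definition. The 4 T+Mesp1+ cells with 2 genes were of other embryos than embryo 2 without a plate name, which gave all those with 6 or 7. In that embryo, 10 of 23 cells had 7 of the genes and the lowest had 3. There Mesp2 levels went with those of Mixl1 (Pearson r = 0.74 of log2(CPM + 1) across 23 cells) more than with those of Evx1 (r = 0.01), and Kdr and Pcdh8 levels had r = 0.53, as a description of cells that share 1 embryo and differ in depth.

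**Figure D3:**
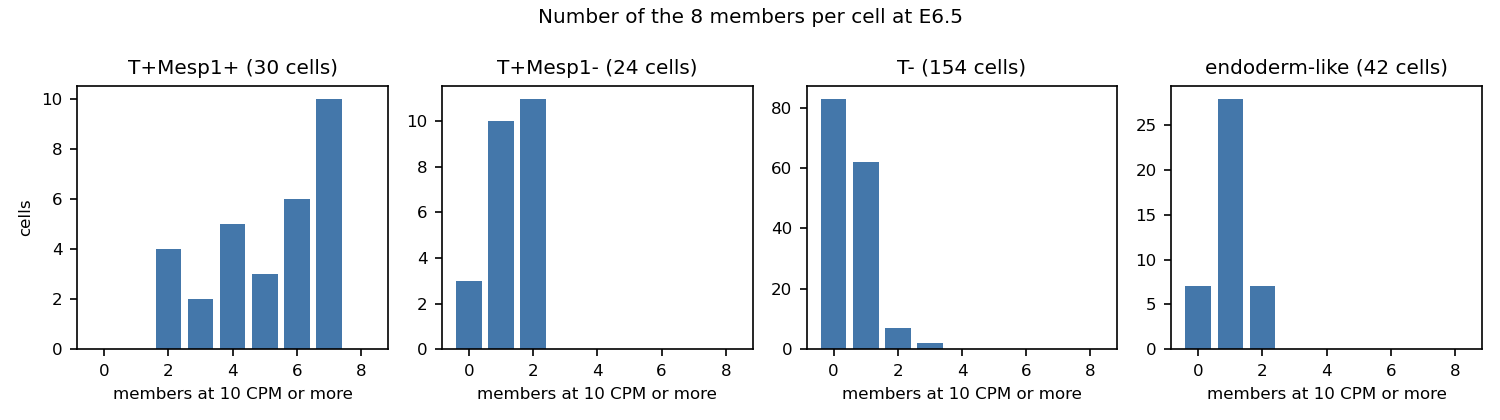
Number of cells, on the vertical axis, that held each number of the 8 genes at 10 CPM or more, in the 4 classes at E6.5. The T+Mesp1+ cells range from 2 to 7 genes, with 10 of 30 at 7, all of embryo 2 without a plate name. No cell of another class holds more than 3.

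Among 13219 genes detected in at least 10 of the 250 E6.5 cells, those whose levels were most like each of the 8 were sought by Pearson correlation of log2(CPM + 1). The points are cells of shared embryos, and 1 embryo gave most of the high values. Fgf3, a ligand of the FGF family, came first for Aplnr (r = 0.92), Pcdh8 (0.89), Mesp2 (0.88) and Kdr (0.84), and second for Mesp1 (0.85) after Aplnr (0.86). Dll1, a Notch ligand, was among the 5 nearest genes of all 5 of these, with Bmp7 near Mesp1 (0.75) and Wnt2 near Kdr (0.78). Fgf3 reached 10 CPM in 20 T+Mesp1+ cells, Dll1 in 17 and Bmp7 in 16, all of them in embryo 2 without a plate name, and in no T+Mesp1- cell. Over the 218 cells of the other 12 embryos the correlations were lower, at -0.03 for Mesp1 with Fgf3, 0.11 for Mesp1 with Aplnr, 0.31 for Mesp1 with Mesp2 and -0.01 for Aplnr with Fgf3, where Aplnr had counts in 4 cells, Mesp2 in 3, Fgf3 and Kdr in 2 each and Pcdh8 in none.

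Evx1 was most like Snai1 (r = 0.59), a repressor of E-cadherin that acts as cells leave the epithelium, ahead of T (0.56) and Nkd1 (0.55), and without the 1 embryo these were 0.33, 0.35 and 0.31. Mixl1 had no close companion: Cyp26a1, which breaks down retinoic acid, led at r = 0.47, followed by Lhx1 (0.46), Sp5, T and Eomes (0.44), and without the 1 embryo the 5 values were 0.42 to 0.45. For Lhx5 the nearest were Spef1 (0.50) and Capn5 (0.39), each detected in under 20 cells, which is too sparse to read.

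The genes around the 8 in the same pathways were taken as 5 lists, and the apelin receptor's ligand genes, Apela and Apln, were not among those tested. Between T-positive and T- sums, edgeR called none of the 10 streak transcription factors, 10 nascent mesoderm genes, 7 Notch and segmentation genes, 13 streak signals and 5 genes of the apelin and VEGF list that were tested, in either direction. Their median log2 differences were 0.93, 1.64, 0.67, 1.21 and 1.02, beside -0.04 over all genes tested. Snai1 had 4.49 (SE 1.30) and Zeb2 4.15 (SE 1.27), each with an edgeR adjusted p close to 1 and chosen here for their size. Snai1 reached 10 CPM in all 23 T+Mesp1+ cells of embryo 2 without a plate name and in 3 of the 7 others. Zeb2 did so in 14 and in 2, and the list values are given with that embryo only. Between T+Mesp1+ and T+Mesp1- sums, the same lists gave no call either, and their medians were 0.82, 1.85, 0.82, 1.09 and -0.24.

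Earlier stages showed when each gene was first seen in embryonic cells, which leave out endoderm-like cells from E4.5 on and take all inner cell mass cells at E3.5. Plate and stage overlapped little, and E3.5 and E4.5 cells shared no plate name. A difference between stages therefore cannot be told apart from one between plates. Sums held 10, 5, 8 and 13 embryos from E3.5 to E6.5. The tenth at E3.5 is 9 cells whose titles carry no embryo number, which may come from more than 1 embryo, and leaving them out changed no call among the 8 genes. Kdr and Evx1 were present at E4.5, absent from the E5.5 sums and present again at E6.5. Kdr reached 10 CPM in 0 of 99 cells at E3.5 and 7 of 29 at E4.5 (24.1%, 10.3 to 43.5%). At E5.5 none of 260 did so, and the 12 of 208 at E6.5 were all in 1 embryo. Evx1 did so in 0 of 99, 5 of 29 (17.2%, 5.85 to 35.8%), 0 of 260 and 44 of 208 cells. Over the 5 E4.5 embryos, Kdr had 31.5, 2.40, 41.1, 7.86 and 0 CPM and Evx1 had 0, 19.2, 0, 1.34 and 8.35 CPM, in order of embryo number. The embryos highest in Kdr had no Evx1, and no E4.5 cell reached 10 CPM of both.

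From E3.5 to E4.5, edgeR called 2847 of 13320 genes (21.4%, with 13.4% higher and 7.99% lower). Of the 4 genes among the 8 that the filter kept, Kdr rose by 10.68 on the log2 scale (edgeR adjusted p = 0.00225) and Evx1 by 9.18 (0.00154), each from 0 in all 10 E3.5 sums. Both entered the test through the stages where they were present, Kdr with counts in 4 E4.5 embryos and 1 E6.5 embryo, so that they were called among the genes kept is not read as a result. From the means, 16.6 ± 18.5 and 5.78 ± 8.27 CPM (SD, n = 5), the rises were at least 323-fold for Kdr and at least 113-fold for Evx1, with 3 counts over the E3.5 group as the floor. From E4.5 to E5.5, 886 genes were called (6.65%, with 3.69% higher and 2.96% lower), and both genes fell to 0 in all 8 embryos, a fall of at least 1200-fold for Kdr (edgeR adjusted p = 0.00593) and at least 418-fold for Evx1 (0.00319). DESeq2 called Evx1 in both steps and Kdr in neither (adjusted p = 0.176 and 0.154), and with single wells alone Kdr did not pass the filter. DESeq2 also called Mesp1 lower at E4.5 (adjusted p = 0.00224), where the E3.5 counts all came from 1 cell. In endoderm-like cells of E4.5, 2 of 76 reached 10 CPM of Kdr and none of Evx1. Of the 7 Kdr cells, 2 were wells labelled double.

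**Figure D4:**
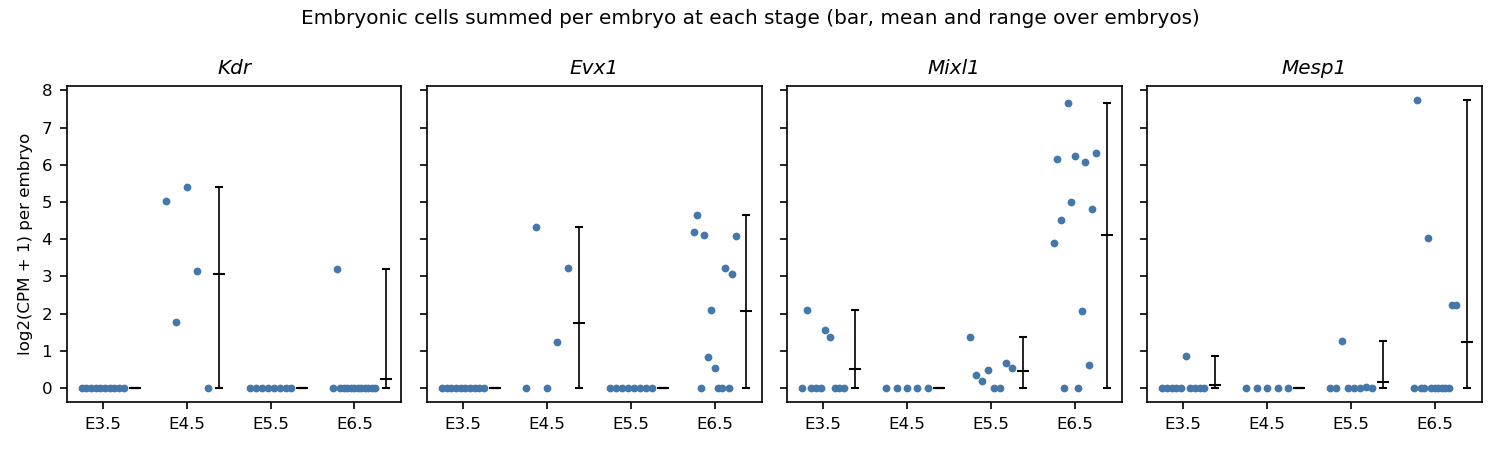
Levels of Kdr, Evx1, Mixl1 and Mesp1 as log2(CPM + 1) in embryonic cells summed per embryo at each stage from E3.5 to E6.5, 1 point per embryo, with a bar for the mean and range. At E4.5 Kdr stands above 0 in 4 of 5 embryos and Evx1 in 3 of 5, both are 0 in every embryo at E3.5 and E5.5, and at E6.5 Kdr is above 0 in 1 embryo.

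From E5.5 to E6.5, edgeR called 1085 of 13320 genes (8.15%, with 3.66% higher and 4.48% lower), and Mixl1, Evx1, Mesp1 and Kdr were among the higher ones. The filter kept these 4 through the stages or embryos where they were high. The count of 4 is therefore not read as a result, and the p-values below carry the same limit. Mixl1 rose from 0.43 ± 0.51 CPM (SD, n = 8) to 45.2 ± 55.4 CPM (n = 13), by 6.73 on the log2 scale (SE 1.41, edgeR adjusted p = 0.00115), and was found in 11 of 13 E6.5 embryos. Evx1 rose from 0 in 8 embryos to 7.20 ± 8.43 CPM, at least 522-fold (edgeR adjusted p = 0.00120), with 4 of 13 embryos at 0. Mesp1 rose by 6.57 (SE 2.07, edgeR adjusted p = 0.0350) with 9 of 13 embryos at 0, and Kdr by 6.06 (SE 1.80, edgeR adjusted p = 0.0303) with 12 of 13 at 0. Leaving out any of the 4 embryos with a T-positive sum took Mesp1 below the filter, and leaving out embryo 2 without a plate name took Kdr below it too. DESeq2 called neither Mesp1 nor Kdr (adjusted p = 0.0754 and 0.311), whereas it called Mixl1 (6.2e-08) and Evx1 (2.36e-07).

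Of the same pathway lists, 4 of 11 streak transcription factors tested were higher at E6.5 (Eomes, Foxa2, Lhx1 and Sall3) and 5 of 11 nascent mesoderm genes (Cdh2, Gata6, Pdgfra, Tbx3 and Zeb2), beside 3.66% higher and 4.48% lower over all genes tested. Gata6 is also on the endoderm list. Eomes, a T-box factor needed for mesoderm to leave the streak, was higher by 3.16 (SE 0.47, edgeR adjusted p = 1.26e-05). Of 15 streak signals tested, Bmp2, Fgf8 and Wnt3 were higher and Fgf4 was lower. Notch1 was lower and no other of 7 Notch and segmentation genes was called. None of 6 genes tested from the apelin and VEGF list was called, and Apela and Apln were not among them. These genes were named after their values were seen. In the same cells 13 of 18 endoderm markers were also called higher and none lower, and their summed level went from 482 to 841 CPM over E5.5 embryos to 574 to 5238 CPM over E6.5 embryos. At E6.5 the called streak factors and nascent mesoderm genes, except Sall3, had a higher mean CPM per cell in endoderm-like than in T- cells. Lhx1 had 409 against 22.3, Foxa2 96.8 against 12.6, Tbx3 113 against 7.41 and Pdgfra 29.6 against 0.734, whereas Sall3 had 6.44 against 20.6. The part of the endoderm markers in the rise of Mixl1 and of these list genes was not tested.

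The other genes were scarce before E6.5. Mixl1 passed 10 CPM in 3 of 99 embryonic cells at E3.5, in 0 of 29 at the next stage and in 5 of 260 a day later, and Mesp1 in 1, 0 and 1. Mesp2 did so in 2 E3.5 cells, at up to 240 CPM, and in 2 E5.5 cells. Aplnr, Kdr and Pcdh8 were at 10 CPM or more in no embryonic cell at E3.5 or E5.5. In the 7 endoderm-like cells of E5.5, Mixl1 and Evx1 each passed the limit in 2.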

How the data were processed

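The authors trimmed reads with Trim Galore (0.4.3 per the labels), aligned them with HISAT2 (2.0.5) to GRCm38 and counted them on genes in SeqMonk. The authors deposited raw read counts, not normalized, for each gene in every cell, and the rows analysed here lie on autosomes. Each total is the depth of its cell, and with SMART-seq2 there are no molecular identifiers. Strand was not used.

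The 8 genes, the lists and the comparisons were chosen with earlier results of these data known. Endoderm-like cells were set apart by consensus clustering after SC3 (8 clusters of all cells, 5 of E6.5 cells). Counts of at least 3 cells were summed per embryo and class and tested with edgeR 4.0.16 in R 4.3.3 (TMM, filterByExpr, quasi-likelihood test, Benjamini-Hochberg), with DESeq2 1.42.0 as an alternative. Sums held 1003306 to 49484352 counts. Doublets were not called: wells labelled double were kept, and single wells alone were an alternative. Classes of the same embryo are paired by origin, and the correlation of their deviations was 0.24, -0.01, 0.17 and 0.06 over 4 embryos, so a fit with the embryo as a replicate block was an alternative. p-values measure the spread between embryos. Named genes were the 8, T, the 5 genes most correlated with each, and list genes that passed. GENCODE M21 gave positions and RefSeq (GRCm38.p6) promoter windows. Scripts were tested on simulated data. Figures used matplotlib 3.10.9.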

Additional observations from a re-analysis of the deposited data

Results flagged for a closer look

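In each group of 4 to 10 sums the highest and lowest embryo were compared with the rest by Dixon's ratio. Of 23 groups with any count 15 had an embryo standing apart. Chance flags about 5% of groups where values are normally spread, but many of these groups hold mostly zeros. A gene seen in 1 embryo alone is always flagged, so the count of 15 is not read against the 5%.

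Among the 4 T-positive sums at E6.5, embryo 2 without a plate name stood apart for Mesp1 (395 CPM, the others at 3.64 to 36.6), Mesp2 (93.6 CPM, the others at 0 to 2.09), Aplnr (153 CPM, the others at 0 to 1.34), Kdr (15.3 CPM, the others at 0) and Pcdh8 (26.6 CPM, the others at 0). It held no T-positive cell without Mesp1. For Mixl1 embryo 3 of the plates stood apart, with 486 CPM against 68.7 to 117 CPM. Batch, dissection and embryo cannot be told apart here.

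In the 8 endoderm-like sums at E6.5, embryo 2 of the plates stood apart for T (41.8 CPM, the others at 0 to 17.2), embryo 5 of the plates for Kdr (0.987 CPM) and embryo 2 titled E6.75 for Lhx5 (1.08 CPM), with the others at 0 for these genes. Among embryonic sums at E3.5, embryo 7 stood apart for Mesp2 (21.1 CPM, the others at 0 to 1.85) and embryo 6 for Mesp1 (0.805 CPM, the others at 0). At E5.5 it was embryo 1 for Mixl1 (1.57 CPM), embryo 3 for Mesp1 (1.38 CPM), embryo 7 for Lhx5 (1.19 CPM) and embryo 4 for Pcdh8 (0.101 CPM, a single count).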

How the results depend on the processing

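Between T-positive and T- sums the count of genes called, 1 in the main fit, was 2 with DESeq2, 10 with no filter on low counts, 2 with a batch term and 3 with cells titled E6.75 left out, and 1 to 2 with each embryo left out in turn. The count among the 8 genes, 0 in the main fit, was 3 with no filter, 1 with E6.75 cells left out and 0 to 1 with each embryo left out. Between T+Mesp1+ and T+Mesp1- sums DESeq2 called 3 genes where edgeR called 0, and leaving out each embryo gave 0. Between T+Mesp1- and T- sums the count was 5 with DESeq2, 4 with limits of 50 CPM and 1 to 2 with each embryo left out, beside 1. From E5.5 to E6.5 it was 2918 with no filter, beside 1085. DESeq2 split that step into 766 higher and 622 lower genes, where edgeR gave 488 and 597. Of the 8 genes, single wells alone gave 1 call from E3.5 to E4.5, 1 from E4.5 to E5.5 and 2 from E5.5 to E6.5, beside 2, 2 and 4; DESeq2 gave 1 from E4.5 to E5.5 and 2 from E5.5 to E6.5, and leaving out each T-positive E6.5 embryo in turn, an alternative added after the data were seen, gave 2 to 3 for the last step. Evx1 turned from 0.80 to -0.44 on the log2 scale between T+Mesp1+ and T+Mesp1- sums without embryo 2 that lacks a plate name, and ranged from -0.44 to 1.26 over the embryos left out. Added after the data were seen, leaving out the E3.5 cells with no embryo number and merging the embryos without a plate name changed no call among the 8 genes, and with no filter and embryo 2 that lacks a plate name left out 2 genes were called between T-positive and T- sums. With the replicate block (embryo as a term) the counts were 1, 0 and 1 in the 3 E6.5 comparisons, as without it, Mesp1 differed by 4.91 between T-positive and T- sums (edgeR adjusted p = 0.999), and no call changed. Of 252 log2 changes of the 8 genes under alternatives 242 kept their direction and side of the threshold. Of 90 shares 20 left their exact 95% interval, 19 of them at a limit of 50 CPM. For genes seen in none of the 24 T+Mesp1- cells the exact 95% interval reaches up to 14.2%, which covers counting error only. The 3 embryos in each T-positive class limit the tests between them.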
